A study of Mus musculus with 48 samples.

Results

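Subunits of the machinery that moves new proteins into the endoplasmic reticulum (ER) and glycosylates them were measured in the liver and colon of C57/BL6 mice. Their dams and they themselves ate a diet supplemented with (H) or marginally deficient in (L) selenium and folate. The study's methods put diet H above the recommended amounts of both nutrients and diet L below them. The genes were 3 subunits of the SEC61 channel (*Sec61a1*, *Sec61b*, *Sec61g*), 3 of the translocon-associated protein complex, TRAP (*Ssr1*, *Ssr2*, *Ssr3*), and 4 of oligosaccharyltransferase, OST (*Stt3a*, *Rpn1*, *Rpn2*, *Ddost*). They are 10 of the 18434 genes named on the array and were read by 21 of its 41174 probes, found by matching the accession of each probe to these symbols. The first letter of a group is the diet of the dam in gestation and lactation, and the second is the diet of the offspring from weaning to 12 weeks of age, so that HH, HL, LH and LL offspring were compared. All diets were high in fat according to the study's methods, in the H groups too. The reference RNA is given as multi-organ in the labels and as pooled intestine and liver in the study's methods.

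The channel formed by SEC61 lets a growing polypeptide enter the ER lumen or slip sideways into the membrane while the ribosome is still making it. TRAP sits beside the channel and helps some signal sequences to open it, and OST, which lies next to it, moves a preassembled glycan from a lipid carrier onto asparagines of the entering chain. Hepatocytes, which secrete most plasma proteins, and goblet and plasma cells of the colon, which secrete mucins and antibodies, depend on this route. Genes of the route are among those that the unfolded protein response can raise when the ER holds too much unfolded protein.

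The 10 genes were picked with results of these arrays known, which had pointed to ER genes in the liver of LH *vs.* HH offspring. The liver values of LH and HH mice are therefore given as a description, without a test, and the dam's diet was tested in LL *vs.* HL, on other mice. Results that include HL livers were also known when the genes were chosen, so that this test may not be fully independent of the choice. Each value is the log2 ratio of a mouse's RNA (Cy3) over 1 common reference RNA (Cy5) on the same array. After normalization within each array, a value above 0 means a ratio above the array's trend for spots of similar intensity. It need not mean a brighter spot for the mouse than for the reference, and levels of different genes cannot be set against each other. Where a gene had several probes, the brightest was used.

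RNA from liver was hybridised on 24 arrays and RNA from whole colon on 24, with 1 array of each group on each of 12 slides. Liver came from 5 HH mice and 6 mice of every other group, as 2 HH arrays carried the same animal and were averaged, and colon came from 6 mice a group. The few mice in a group limit the precision. Spots well above background in Cy3 made up 55.1 to 66% of a liver array and 66.8 to 73.7% of a colon array, and all 21 probes were well above background, and none saturated, on all 48 arrays. Hepatocyte markers (7 genes) lay 5.04 to 8.02 log2 units higher in liver than in colon, and 8 markers of colon epithelium and 8 of goblet cells had differences of -6.77 to -2.99 and of -7.12 to -3.88.

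Some libraries stood apart from the others of their tissue. HL liver replicate 1 had high levels of acinar pancreas transcripts, with *Cpa1* at 1.43 against -2.07 in the next highest liver and *Pnlip* at 1.16 against -2.62. LL colon replicate 4 had high levels of the macrophage transcripts *Marco*, at 4.67 against -1.21 in the next highest colon, and *Cd5l*, at 0.90 against -3.08. The plasma cell transcript *Mzb1* was also highest in this colon, at 1.35 against 0.15. *Xist*, which only cells with more than 1 X chromosome transcribe, gave signal in 2 livers and 6 colons, although the study's methods call the offspring male. Leaving out the first 2 of these samples, or the 8 with *Xist* signal, left the number of subunits called as it was in liver LL *vs.* HL (0) and between the tissues (4). On slides 11 and 12, which held replicates 5 and 6 of each colon group, several of the genes were shifted, as described for the colon.

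The start regions of the genes are shown for the subunit with the largest liver difference between LH and HH (*Stt3a*), for *Ddost*, which came next among those higher in LH, and for *Sec61g*, which differed the other way. Each line gives the 250 bases before the start site from RefSeq, 5′ to 3′ on the gene's strand, in assembly GRCm38.p6. Capitals mark CCAAT and CCACG, on either strand, the outer letters of the ER stress element, also as ATTGG and CGTGG on the other strand, the sequence through which ATF6 and NF-Y act on ER chaperone genes.

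Stt3a, chr9:36767623-36767872, minus strand: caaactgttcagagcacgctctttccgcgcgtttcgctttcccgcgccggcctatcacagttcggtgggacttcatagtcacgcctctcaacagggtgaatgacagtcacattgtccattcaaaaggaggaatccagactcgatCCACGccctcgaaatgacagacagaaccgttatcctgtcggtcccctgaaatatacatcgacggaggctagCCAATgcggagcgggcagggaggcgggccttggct

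Ddost, chr4:138304488-138304737, plus strand: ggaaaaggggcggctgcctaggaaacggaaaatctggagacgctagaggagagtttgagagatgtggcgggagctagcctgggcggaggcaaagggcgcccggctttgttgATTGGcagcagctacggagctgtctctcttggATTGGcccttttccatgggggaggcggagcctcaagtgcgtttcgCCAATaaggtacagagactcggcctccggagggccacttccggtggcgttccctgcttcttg

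Sec61g, chr11:16508485-16508734, minus strand: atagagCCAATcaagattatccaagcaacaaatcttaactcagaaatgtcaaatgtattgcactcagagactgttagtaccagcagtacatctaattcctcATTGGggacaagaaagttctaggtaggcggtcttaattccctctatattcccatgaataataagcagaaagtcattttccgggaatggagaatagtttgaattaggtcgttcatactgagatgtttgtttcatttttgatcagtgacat

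RefSeq promoters of 300 bases, 250 before and 50 after the start, were at hand for 8 of the 10 genes (9 promoters, as *Rpn2* had 2), and not for *Sec61a1* and *Ssr2*. None of the 9 held, on either strand, the whole ER stress element (CCAAT and CCACG with 9 bases between), its variant II (ATTGG and CCACG with 1 base between) or the unfolded protein response element TGACGTGG. Of all 32851 promoters of this length, 0.119% held the first, 0.0365% the second and 0.676% the third. CCAAT, with or without CCACG, occurred in 6 of the 9, against 37.4% of all promoters, and CCACG in 5, against 32.8%. Both occurred in 4, those of *Ssr3*, *Stt3a*, *Rpn1* and *Ddost*, against 11.7%, with CCACG of *Ddost* lying after the start and thus outside the line shown. The shorter letters lie inside the longer elements, and a match is a stretch of letters, not a site.

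In the liver, 8 of the 10 subunits had a higher mean in LH than in HH offspring, *Sec61b* was level and *Sec61g* was lower. The median difference over the 10 genes was 0.32 (log2, LH minus HH), beside -0.008 over all probes. Every OST subunit and every TRAP subunit among the 10 was on the higher side. Other subunits of these complexes, described below, did not all do so. A call needed more than a 1.5-fold difference together with an adjusted p below 0.05. Of all 41172 probes, 0% passed both limits in limma for LH *vs.* HH, while 4934 (12%) had an unadjusted p under 0.05. No test is given for the 10 genes in this contrast.

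Among the channel subunits, *Sec61a1*, the pore itself (chr6:88503607-88518800), stood at -0.48, -0.38, -0.24, -0.22 and -0.04 in the 5 HH livers. Its 6 LH livers ran from -0.04 to 0.45 with a median of 0.10, so that the groups came within rounding of each other without crossing. The difference was 0.42 ± 0.12 (SE, 5 and 6 mice), a 1.34-fold change. *Sec61g*, a small subunit that clamps the pore from the side (chr11:16501638-16508484), had values of -0.27, -0.15, -0.03, -0.02 and 0.08 in HH livers. All LH livers lay below these, from -0.95 to -0.50 with a median of -0.72, and the difference was -0.64 ± 0.21. *Sec61b*, the other small subunit (chr4:47474661-47483233), ran from -0.61 to -0.18 in HH and from -0.56 to -0.15 in LH, with a difference of 0.00 ± 0.13. Of the 3 channel subunits, 1 was thus higher, 1 lower and 1 level.

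The 3 chosen TRAP subunits had differences of 0.15 to 0.38. *Ssr1*, the alpha subunit (chr13:37971401-37994208), was at -0.37, -0.37, -0.37, -0.35 and -0.24 in HH and from -0.25 to 0.09 in LH livers, a difference of 0.24 ± 0.10. *Ssr2*, the beta subunit (chr3:88579608-88588420), was at -0.29, -0.06, -0.06, -0.01 and 0.28 in HH and from 0.14 to 0.57 in LH, a difference of 0.38 ± 0.17. *Ssr3*, the gamma subunit (chr3:65379657-65392553), was at -0.47, -0.43, -0.39, -0.38 and -0.20 in HH and from -0.33 to -0.12 in LH, a difference of 0.15 ± 0.08. For all 3, the highest HH liver reached into the range of the LH livers.

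The 4 chosen OST subunits all had higher means in LH. *Stt3a*, the catalytic subunit that works with the channel (chr9:36729344-36767622), stood at -1.04, -0.98, -0.58, -0.52 and -0.44 in HH livers. In LH livers it ran from -0.39 to 0.40 with a median of 0.17, without overlap, and the difference of 0.82 ± 0.23 (1.77-fold) was the largest of the 10. *Rpn1*, a scaffold subunit that contacts the ribosome and channel (chr6:88084473-88105304), stood at -0.97, -0.60, -0.58, -0.51 and -0.38 in HH. Its LH livers ran from -0.23 to 0.08, also without overlap, a difference of 0.48 ± 0.13. The groups overlapped for the remaining pair. *Ddost*, the OST48 subunit (chr4:138304738-138312619), was at -1.22, -1.16, -1.04, -0.86 and -0.37 in HH and from -0.76 to -0.07 in LH, a difference of 0.53 ± 0.14. *Rpn2*, another structural subunit (chr2:157279098-157326318), was at -0.78, -0.75, -0.68, -0.65 and -0.54 in HH and from -0.60 to -0.27 in LH, a difference of 0.27 ± 0.09.

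**Figure D1:**
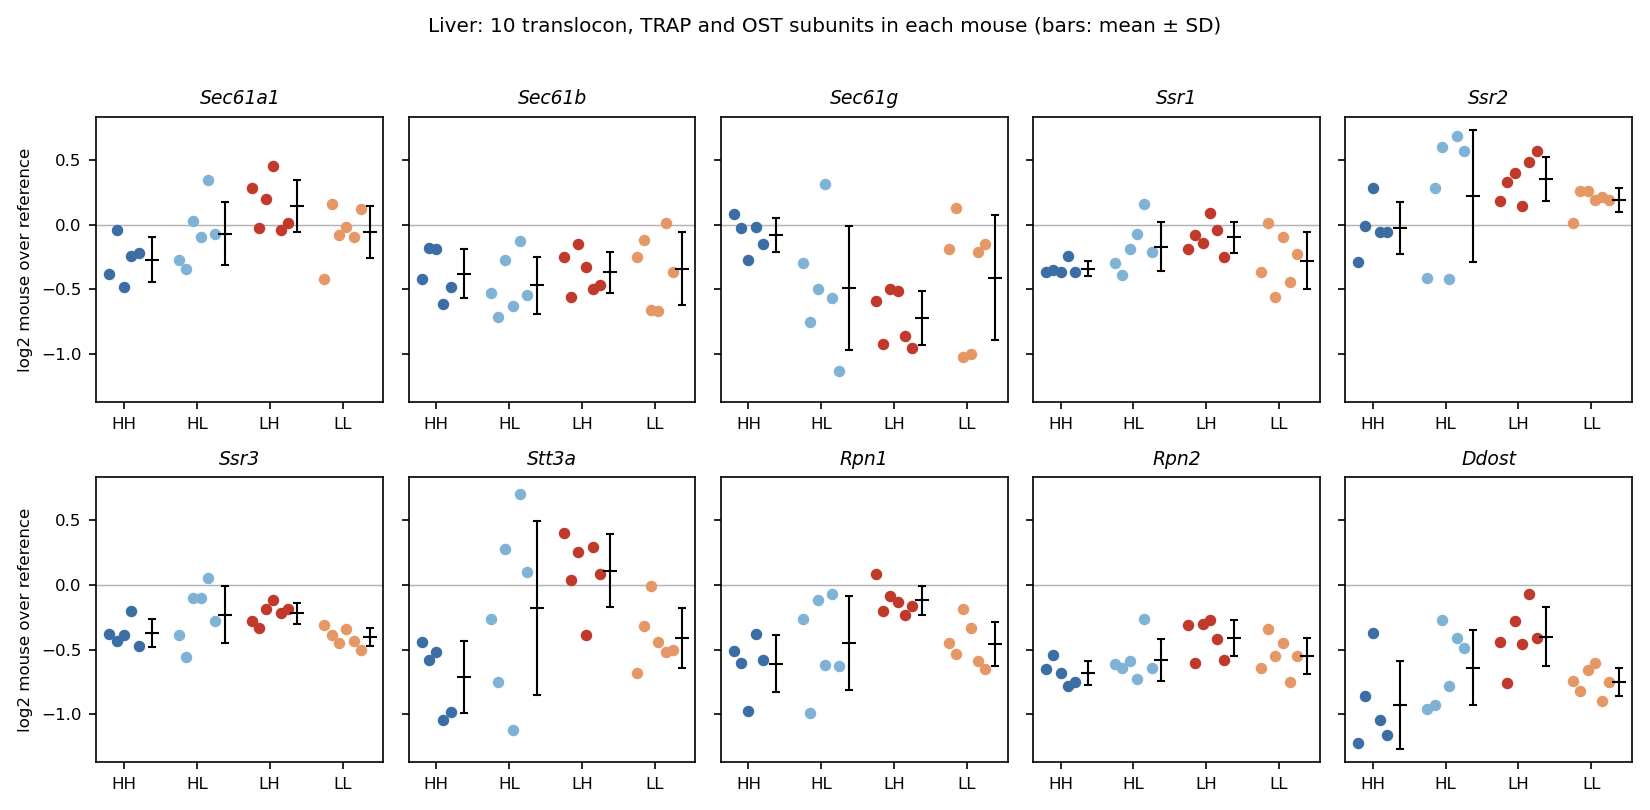
Log2 ratio of mouse over reference (y axis) in every liver for the 10 subunits, with 1 point per mouse, groups on the x axis and mean ± SD as bars (5 HH mice, 6 in the other groups). LH points lie above all HH points for *Stt3a* and *Rpn1*, just above them for *Sec61a1*, and below them for *Sec61g*. HL points are the most spread for *Stt3a*, from -1.12 to 0.70.

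Groups did not overlap for 3 subunits that were higher in LH (*Sec61a1*, *Stt3a*, *Rpn1*), beside 0.7% of all probes, and for 1 that was lower (*Sec61g*), beside 0.843%. As the genes were chosen on this contrast, these shares only describe it. Within slides, where an LH and an HH array lay side by side, *Sec61a1*, *Ssr1*, *Ssr2*, *Ssr3*, *Stt3a* and *Rpn1* were higher in LH on 6 of 6 slides. *Rpn2* and *Ddost* were higher on 5 of 6, *Sec61b* on 3 of 6 and *Sec61g* on 0 of 6. For *Stt3a* the within-slide difference ran from 0.60 to 1.27. The 2 arrays of the same HH mouse count on 2 of these slides.

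The other probes of a gene had the sign of the brightest one in this comparison. *Sec61a1* differed by 0.42, 0.43 and 0.23 on its 3 probes, from brightest to dimmest. *Ssr1* differed by 0.14 to 0.24 on 5 probes, *Ssr3* by 0.06 to 0.19 on 3 and *Rpn1* by 0.26 to 0.48 on 3. *Rpn2* differed by 0.27 on its brightest and 0.72 on its dimmer probe. The remaining 5 genes had 1 probe each, so that no other probe checks *Stt3a* and *Sec61g*, which had the largest differences in either direction.

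Markers of cell types moved between the same groups. All 7 hepatocyte markers were higher in LH than HH livers, by a median of 0.34, and their mean over markers ran from 1.43 to 1.81 in HH and from 1.80 to 2.17 in LH mice. All 8 markers of Kupffer cells, the liver's macrophages, were lower in LH (median -0.29), with means of 1.02 to 2.50 in HH and 1.07 to 2.18 in LH. All 7 markers of acinar pancreas were lower too (median -0.35), at -2.62 to -1.83 in HH and -3.01 to -2.55 in LH. Medians of the other lists were smaller, at -0.10 for goblet cells (7 of 8 lower), -0.06 for colon epithelium (5 of 8 lower), -0.05 for plasma cells (4 of 6 lower) and -0.03 for smooth muscle (6 of 8 lower). Plasma cell markers ranged widely around their median, from -0.30 to 1.56. No marker was called, all markers of the first 3 lists were above background on every HH and LH liver array, and the part of cell content in the differences of the 10 genes was not tested. In tissue RNA, more cells of a type and more RNA per cell cannot be told apart.

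The dam's diet was then compared in offspring that ate diet L themselves, LL *vs.* HL, on mice outside the LH and HH groups. The 10 differences (LL minus HL) lay between -0.24 (*Stt3a*) and 0.13 (*Sec61b*), 4 above and 6 below 0, with a median of -0.02 beside -0.005 over all probes. None was called by limma (0% of 41171 probes called), and the lowest adjusted p was 1. *Ssr3* alone had an unadjusted p under 0.05, as did 3.08% of all probes. The groups overlapped for all 10, and they lay apart for 0.0753% of all probes with LL higher and 0.034% with LL lower.

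*Stt3a* ran from -1.12 to 0.70 in HL livers (median -0.08) and from -0.68 to -0.01 in LL livers (median -0.47), with a difference of -0.24 ± 0.22. HL livers were split, with 3 between 0.10 and 0.70 and 3 between -1.12 and -0.26, and all LL livers lay inside their range. *Rpn1* ran from -0.99 to -0.07 in HL and from -0.65 to -0.19 in LL, a difference of -0.01 ± 0.13. *Ddost* ran from -0.96 to -0.27 in HL and from -0.90 to -0.60 in LL, a difference of -0.11 ± 0.14. *Sec61a1* ran from -0.34 to 0.34 in HL and from -0.42 to 0.16 in LL, a difference of 0.01 ± 0.11. None of these 4 separated the groups. Hepatocyte markers differed by a median of -0.05 (3 higher and 4 lower) in this comparison and Kupffer markers by -0.04 (7 of 8 lower), while pancreas markers differed by -0.77 (7 of 7 lower), with HL replicate 1 among the HL mice. Without that mouse and LL colon replicate 4 the median over the 10 subunits was -0.09, with 0 called.

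*Sec61g*, the subunit that was lower in LH, ran from -1.13 to 0.31 in HL and from -1.02 to 0.13 in LL livers, a difference of 0.08 ± 0.20. In LL, 2 livers were far below the others, the lower at -1.02, and the other 4 lay between -0.21 and 0.13. *Ssr3* ran from -0.56 to 0.05 in HL and from -0.50 to -0.31 in LL, a difference of -0.17 ± 0.08. *Ssr1* differed by -0.12 ± 0.09, *Ssr2* by -0.03 ± 0.16 and *Rpn2* by 0.03 ± 0.08. The SD between livers was 0.67 in HL and 0.23 in LL for *Stt3a*, 0.51 and 0.09 for *Ssr2*, and 0.48 in both for *Sec61g*.

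**Figure D2:**
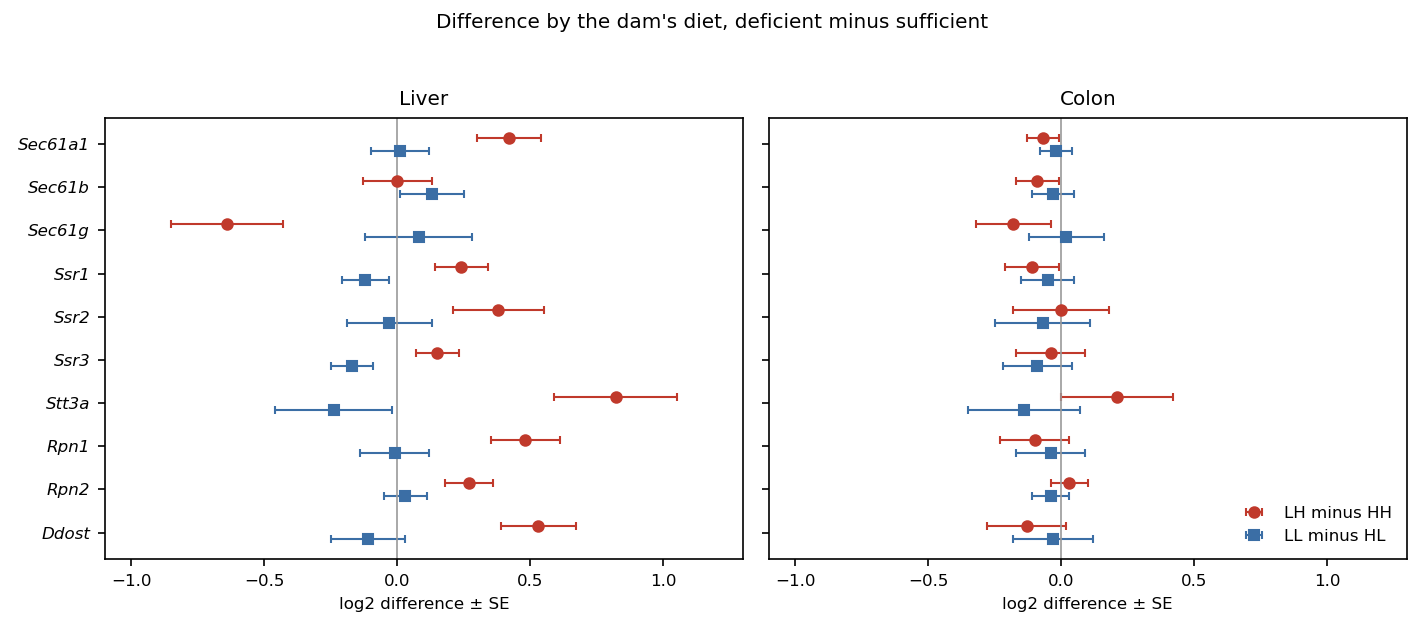
Log2 difference by the dam's diet (x axis, diet L minus diet H, bars: SE from limma) for each subunit (y axis), liver at left and colon at right. Circles are offspring on diet H (LH minus HH) and squares offspring on diet L (LL minus HL). The title of the figure calls diet L deficient and diet H sufficient. In liver the circles run from -0.64 to 0.82 and the squares from -0.24 to 0.13, and in colon all lie between -0.18 and 0.21.

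Set side by side, LH minus HH and LL minus HL differed in the liver by a median of -0.38 over the 10 genes (LL minus HL less LH minus HH), with 8 below and 2 above 0. *Stt3a* had the lowest value, -1.06 ± 0.32, and *Sec61g* the highest, 0.73 ± 0.29. This contrast holds the LH and HH livers on which the genes were chosen and is given without a test.

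The diet of the offspring was compared for dams on each diet. HL minus HH, which shares its HH mice with the chosen contrast, had a median of 0.17 over the 10 genes, with 8 above 0, from *Sec61g* at -0.41 ± 0.21 to *Stt3a* at 0.54 ± 0.23. LL minus LH, which shares its LH mice, had a median of -0.18, with 8 below 0, from *Stt3a* at -0.52 ± 0.22 to *Sec61g* at 0.31 ± 0.20. *Ssr3*, *Stt3a*, *Rpn1* and *Ddost* were lower in LL than in LH on all 6 slides. LL minus HH had a median of 0.14 and LH minus HL of 0.15. All 4 comparisons hold HH or LH livers on which the genes were chosen, and their values are given without a test.

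Across livers the subunits varied together in part. After removing group means, 40 of the 45 pairs had a positive Pearson correlation over 23 mice, with a median of 0.30 and a range of -0.57 to 0.71. *Sec61a1* and *Rpn2* were the closest pair (0.71). *Sec61g* was positive with 5 of the 9 others and lowest with *Ssr2* (-0.57) and *Stt3a* (-0.40). With slide means removed as well, over 24 arrays, 40 pairs were positive and the median was 0.43. The points share arrays, slides and the reference.

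Genes outside the 10 that followed their mean most closely in liver, among 16909 probes well above background on every liver array, were led by *Tram1* (r = 0.87 over 23 mice), whose protein sits at the channel and helps chains to enter the membrane. *Txndc5*, an ER disulfide isomerase, and *Tasp1*, a protease, followed (both 0.82), with *Arfgap3* (0.82), a regulator of Golgi vesicles. *Ptprg* (0.81), *Spcs3* (0.80), a subunit of the signal peptidase that trims entering chains, *Jpt2* (0.80), *Nox4* (0.79), *Yipf2* (0.79) and *Papss1* (0.78) completed the first 10. Group differences are part of these values.

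The rest of the route was described with 7 lists of 92 measured genes. In liver LH minus HH, 62 of the 92 were higher and 29 lower, with a median of 0.11. ER chaperones and regulators of the unfolded protein response had the largest median, 0.49, with 14 of 15 higher. *Hyou1*, an ER chaperone of the heat shock protein family, differed by 1.36 ± 0.37, with means of 0.15 ± 0.40 (SD, n = 5) in HH and 1.51 ± 0.52 (n = 6) in LH. *Pdia4*, a disulfide isomerase, differed by 1.02 ± 0.32, and *Sdf2l1*, a partner of ER chaperones, by 0.89 ± 0.38. The lists too were chosen with these values known, and the counts describe them.

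Genes that trim glycans or bind them for folding came next, with 11 of 12 higher and a median of 0.21. *Edem2*, which starts mannose trimming, differed by 0.61 ± 0.27, and the lectin chaperones *Calr* and *Canx* by 0.56 ± 0.17 and 0.52 ± 0.14. The 14 other subunits and partners of the translocon and OST had 6 higher, 7 lower and a median of -0.01. Their largest differences were those of *Sec62*, which helps short chains into the channel after translation (0.80 ± 0.24), *Tram1* (0.42 ± 0.16) and *Stt3b* (0.38 ± 0.19), the catalytic subunit of the other form of OST. Lower in LH were *Ost4* (-0.28), *Ostc* (-0.20), *Tusc3* (-0.18) and *Tmem258* (-0.02) of OST, *Ssr4* of TRAP (-0.14), *Tram2* (-0.07) and *Sec61a2* (-0.03). *Sec63* (0.22), *Magt1* (0.11) and *Krtcap2* (0.11) were higher, and *Dad1* was level.

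Medians of the signal recognition particle (8 genes) and signal peptidase (5 genes) were 0.19 and 0.20. *Srp68* of the particle differed by 0.50 ± 0.19, *Srpr* and *Srprb*, its receptor, by 0.44 ± 0.24 and 0.32 ± 0.19, and *Sec11a* of the peptidase by 0.28 ± 0.13. *Spcs1* (-0.24 ± 0.16) and *Spcs3* (0.22 ± 0.11) of the peptidase had opposite signs. Synthesis of the lipid-linked glycan (23 genes) had a median of 0.06, with *Alg8*, which adds a glucose, at 0.50 ± 0.12, *Dpagt1*, the first step, at 0.31 ± 0.10 and *Alg13*, part of the second, at -0.44 ± 0.17. Insertion of tail-anchored and multispanning proteins (15 genes) had a median of -0.01, with *Emc1* at 0.35 ± 0.19, *Emc3* at 0.34 ± 0.14 and *Emc8* at -0.25 ± 0.14.

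In LL minus HL the medians of the 7 lists lay between -0.13 and 0.11, with 0 of the 92 called, a lowest adjusted p of 1, and 2 genes with an unadjusted p under 0.05, beside 3.08% of all probes. These were *Emc4* of the ER membrane complex (0.25 ± 0.11) and *Atf6*, a sensor of the unfolded protein response (-0.27 ± 0.13). ER chaperones had 9 of 15 higher, with *Creld2* at 0.53 ± 0.29 and *Pdia6* at 0.23 ± 0.17.

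**Figure D3:**
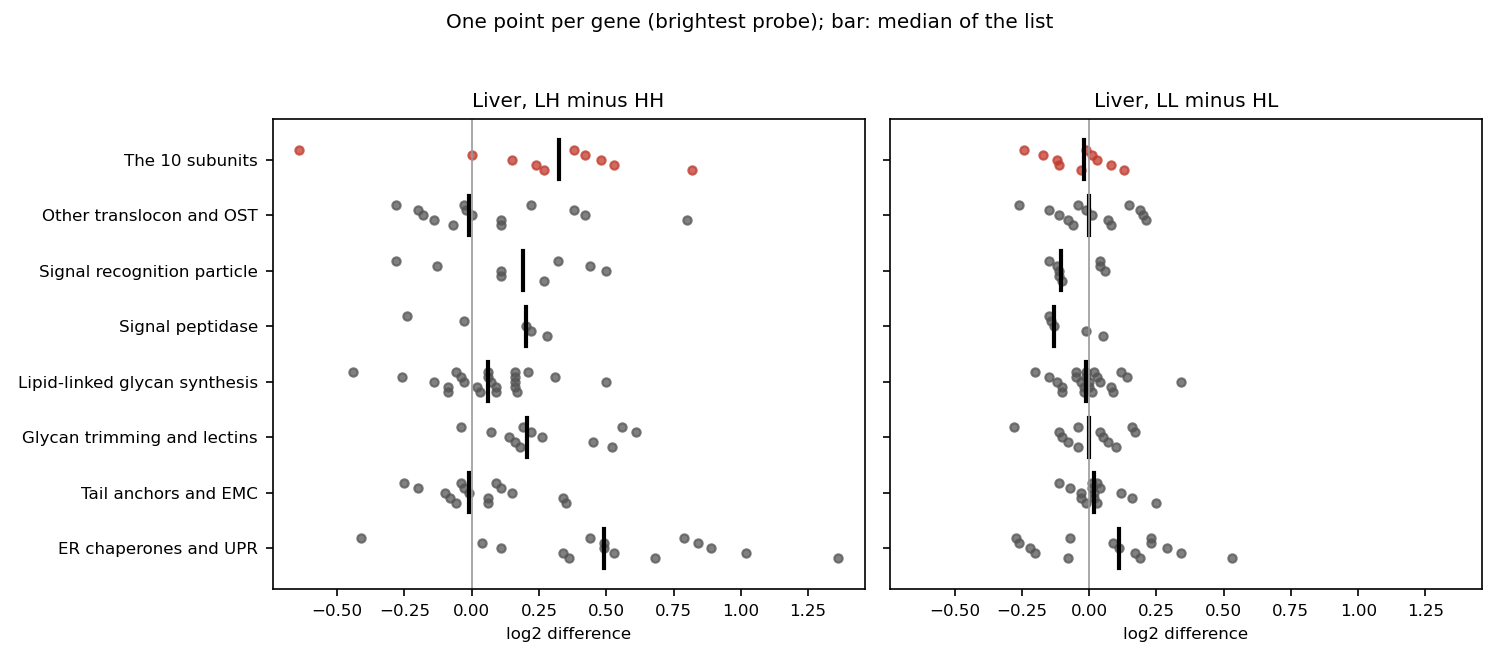
Log2 differences in liver (x axis) of single genes (points) in the 10 subunits and 7 lists of the secretory route (y axis), LH minus HH at left and LL minus HL at right, with the median of each list as a bar. At left the bars of the 10 subunits (0.32) and of ER chaperones (0.49) lie farthest right, and at right the bars lie between -0.13 and 0.11.

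In the colon, none of the 10 subunits passed the test in any comparison of diets. LH minus HH ran from -0.18 (*Sec61g*) to 0.21 (*Stt3a*), with a median of -0.08, and LL minus HL from -0.14 (*Stt3a*) to 0.02 (*Sec61g*), with a median of -0.04. In each of the 6 pairs of groups limma called 0 of 10 genes (0% of 41173 probes), the lowest adjusted p was 1, and 0 genes had an unadjusted p under 0.05. Of all probes 3.24% did so in LH *vs.* HH, 1.02% in LL *vs.* HL, 1.46% in HL *vs.* HH, 2.8% in LL *vs.* LH, 1.72% in LL *vs.* HH and 2.95% in LH *vs.* HL. All 24 colons lay between 0.12 and 0.54 for *Sec61a1* and between 0.00 and 0.40 for *Rpn2*, while *Stt3a* ran from -0.59 to 0.82. Standard errors of the differences were 0.06 to 0.21, with 0.21 ± 0.21 for *Stt3a* in LH minus HH. LL minus HL in liver less the same in colon had a median of 0.03, with 0 called and a lowest adjusted p of 1, and 0 of 10 genes had an unadjusted p under 0.05, beside 1.41% of all probes. The same difference of the dam's effects between offspring diets that was described for liver had a median of 0.05 in colon, with 0 of 10 and 1.79% of all probes at an unadjusted p under 0.05 and 0 called.

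For several subunits colons of all diets differed by slide. On slides 11 and 12 the 8 arrays of *Ssr2* ran from -0.59 to -0.32, below all 16 arrays of slides 7 to 10, which ran from -0.16 to 0.44. *Rpn1* went the other way, from 0.61 to 0.81 on slides 11 and 12 and from 0.01 to 0.50 on the others. *Stt3a* ran from -0.59 to -0.21 and from -0.33 to 0.82. Means on slides 11 and 12 against slides 7 to 10 were -0.41 and 0.16 for *Stt3a*, -0.74 and -1.07 for *Ssr3*, -0.06 and -0.29 for *Ssr1*, 0.27 and -0.05 for *Ddost* and 0.34 on both for *Sec61a1*. Every slide held all 4 groups, the cause was not tested, and with the slide as a block 0 of 10 genes were called in every colon comparison.

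**Figure D4:**
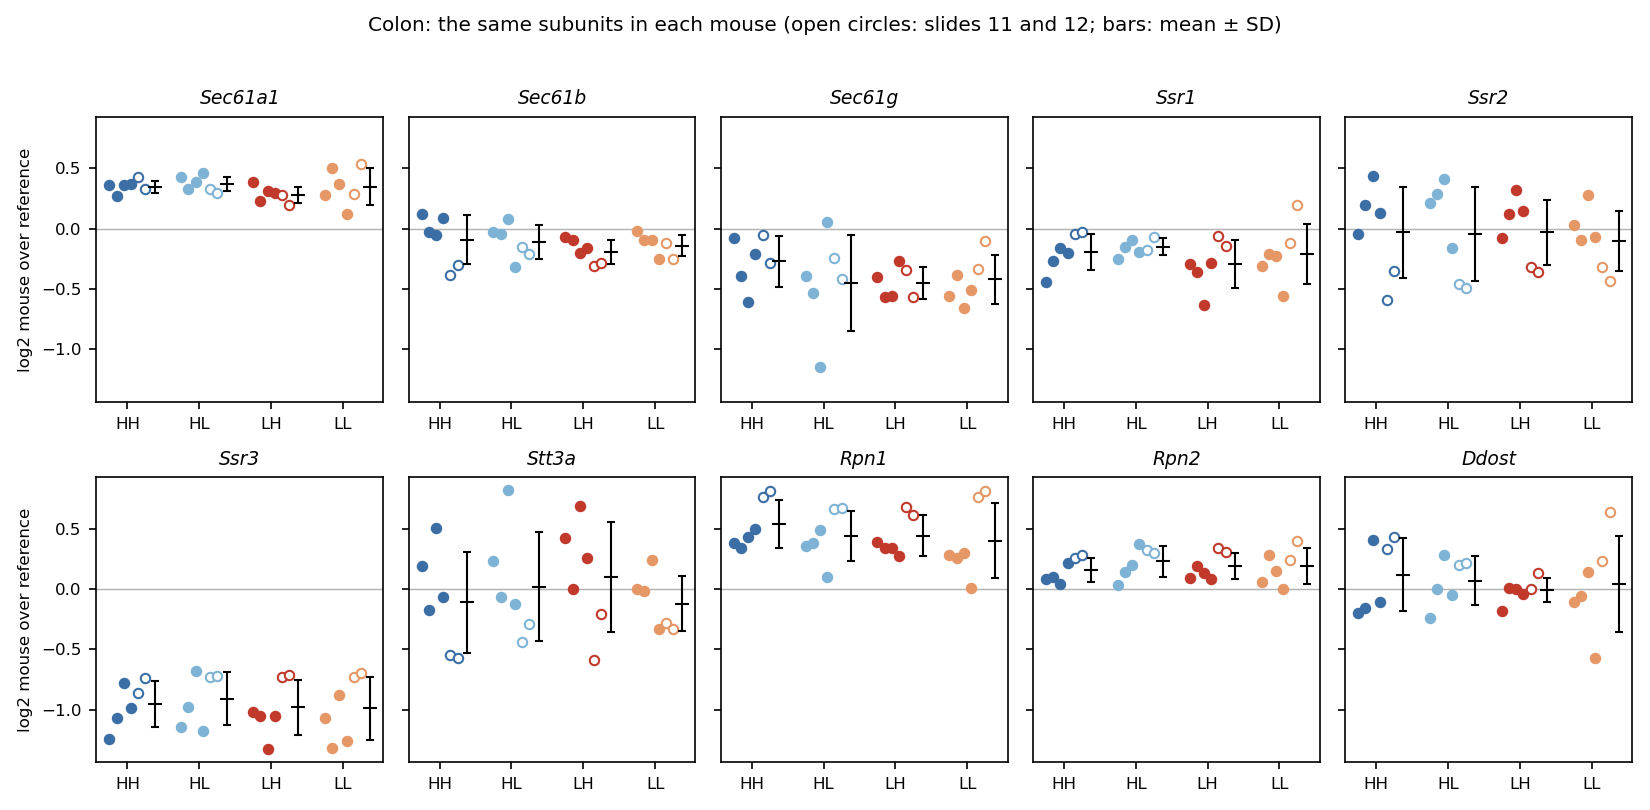
Log2 ratio of mouse over reference (y axis) in every colon for the 10 subunits, with groups on the x axis (6 mice each), open circles for slides 11 and 12, filled circles for slides 7 to 10 and mean ± SD as bars. For *Ssr2* all open circles lie below the filled ones, for *Rpn1* all lie above, and for *Sec61a1* they mix.

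In the colon the pairs were of mixed sign. Over 24 colons, with group means removed, 22 of 45 pairs were positive, with a median of 0.00 and a range of -0.70 to 0.82. *Ssr2* and *Stt3a*, both low on slides 11 and 12, formed a close pair (0.82), and *Ssr1*, *Ssr3*, *Rpn1* and *Ddost*, all higher there on average, were close to each other (0.76 to 0.82). With slide means removed as well, 34 of 45 pairs were positive and the median was 0.33. Genes most like the mean of the 10 in colon, among 20297 probes, were *Pls1* (r = 0.85 over 24 mice), a bundling protein of microvilli, *Agpat5* (0.81), *Sult1b1* (0.80), a sulfotransferase, *Prkca* (0.78), *Tafa5* (0.78), *1700001L05Rik* (0.78), *Atp2a2* (0.77), the calcium pump of the ER, *Hook1* (0.77), *Arhgef39* (0.76) and *Napepld* (0.76). The part of the slides in this order was not tested.

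Between the tissues, all measured against 1 reference, 4 of the 10 subunits passed both limits, beside 30.3% of all probes. *Rpn1* (-0.86 ± 0.07, liver minus colon), *Rpn2* (-0.75 ± 0.04) and *Ddost* (-0.73 ± 0.07), all of OST, were lower in liver, beside 15.7% of all probes. *Ssr3* of TRAP was higher in liver (0.65 ± 0.05), beside 14.6%. Their adjusted p in limma ran from 1.17e-21 (*Rpn2*) to 4.61e-12 (*Ddost*). In livers *Rpn2* lay between -0.78 and -0.26 and in colons between 0.00 and 0.40, and *Ssr3* between -0.56 and 0.05 and between -1.33 and -0.68. The tissues did not overlap for these 2 genes, as for 23.2% of all probes.

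Without the limit on fold change 8 of the 10 had an adjusted p under 0.05, beside 69.6% of all probes (71.2% before adjustment). *Sec61a1* (-0.40 ± 0.05, adjusted p = 1.37e-10) and *Sec61b* (-0.26 ± 0.05, adjusted p = 2.6e-05) of the channel were lower in liver. *Stt3a* (-0.27 ± 0.11, adjusted p = 0.0343) and *Ssr2* (0.23 ± 0.09, adjusted p = 0.0181) were less firm. The adjusted p of *Stt3a* rose above 0.05, to at most 0.063, when any 1 of 10 mice was left out (liver HH replicates 4 and 5, HL 2 and 4, LH 4, and colon HH 3, HL 3, LH 1 and 3, LL 3). *Ssr2* was at 0.05 ± 0.08 (adjusted p = 0.614) without slides 11 and 12, and at -0.29 when arrays were centred on their median in place of loess. *Sec61g* (-0.03 ± 0.09) and *Ssr1* (-0.01 ± 0.05) did not differ past the test, and the 5 probes of *Ssr1* had different signs, from -0.60 to 0.44.

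The labels do not link livers to colons, which may come from the same animals, and the fit treats all 47 as separate. Tissue cannot be told apart from slide and scan, since slides 1 to 6 held liver and were scanned in 1 run and slides 7 to 12 held colon and were scanned in another. The choice of scaling mattered here. Centring each array on its median moved the median of all probes from 0.01 to 0.22 and that of the 10 subunits from -0.26 to -0.68, and 6 genes were then called lower in liver and 0 higher, in place of 3 and 1. *Ssr3* was at 0.24 under that scaling, *Sec61a1* at -0.75, *Sec61b* at -0.61 and *Stt3a* at -0.89 (adjusted p = 1.52e-08 in limma). The mean over the 3 probes of *Sec61a1* was -0.24. *Rpn1*, *Rpn2* and *Ddost* were called lower in liver under loess and under median centring, but the mean over the 3 probes of *Rpn1* was -0.56 and missed the fold limit. With the scanner's processed signals *Ssr3* was at 0.58 and missed it too.

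**Figure D5:**
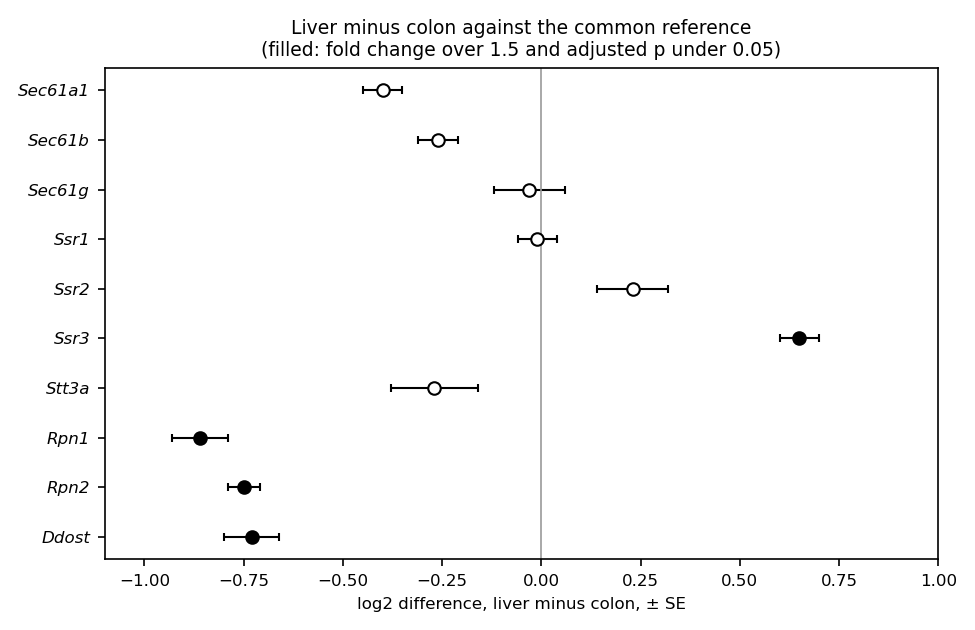
Log2 difference between liver and colon against the common reference (x axis, bars: SE from limma, 23 livers and 24 colons) for the 10 subunits (y axis), filled where the fold change was over 1.5 and the adjusted p under 0.05. *Rpn1*, *Rpn2* and *Ddost* lie near -0.8, between -0.86 and -0.73, and *Ssr3* at 0.65.

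The other lists differed between tissues in their own ways, with 24 of 92 genes called higher in liver, beside 14.6% of all probes, and 8 lower, beside 15.7%. ER chaperones and regulators had 11 of 15 called higher in liver and 0 lower, with a median of 1.02. *Pdia4* (1.51 ± 0.13), *Hspa5*, the main ER chaperone (1.33 ± 0.11), and *Hyou1* (1.13 ± 0.15) were among them. Among the other translocon and OST genes *Tram2* (1.66 ± 0.06) and *Sec63* (0.77 ± 0.04) were called higher, and *Tusc3* (-1.35 ± 0.06), an oxidoreductase subunit of OST, and *Stt3b* (-0.74 ± 0.08) lower in liver. *Lman1* (2.19 ± 0.07) and *Mcfd2* (2.10 ± 0.05), which together carry glycoproteins out of the ER, had the largest differences of the 92, and *Sec11c*, a catalytic subunit of the signal peptidase, was at -1.36 ± 0.08.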

How the data were processed

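Total RNA of liver and colon was labelled with Cy3 and hybridised with a Cy5-labelled common reference on Agilent 2-colour arrays, without a dye swap. A dye effect therefore stays in each single value over the reference. As far as all arrays share it, it cancels in differences between groups. The deposited spot intensity values came from Feature Extraction 10.10.1.1, and the deposited log2 ratios (reference over mouse, by direction of the values) followed loess without background subtraction, with a lowest r of 0.9997 over arrays (the submitters' processing notes name limma and R 3.0.2).

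From the median intensities, a local background brighter than its spot was replaced by the array's median background, because without this the SD of log2 ratios fell to 0.53 on the most affected array. Normexp (offset 50), loess with control spots at weight 0, and sign reversal gave log2 mouse over reference. Flagged spots were dropped, spots of a probe averaged, and genes named through RefSeq accessions. Arrays 3 and 6 of liver HH carried 1 animal (r of deviations 0.805, at most 0.26 in other HH pairs) and were averaged. limma 3.58.1 in R 4.3.3 fitted the 4 groups of a tissue, and all 8 for liver minus colon, over probes with a value in at least 2 mice a group, with Benjamini-Hochberg adjustment over all probes. A call needed a fold change over 1.5 and an adjusted p under 0.05.

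Members and lists were chosen with earlier results of these data known. Named were all 10 members by their brightest probe and, from each list and comparison, genes among those called or, with under 3 called, among the 3 with the lowest p (largest difference for liver LH minus HH), with the 10 genes a tissue most correlated with the members' mean. Of the other translocon and OST genes, all 14 were named for liver LH minus HH. In simulated liver LL minus HL data with 200 of 41174 probes changed by 1 log2 unit, 186 (93%) were recovered with 3 false calls, and in colon 188 (94%) with 3. These changes were larger than any LL minus HL difference of the 10 genes, and noise was drawn independently for each probe. The shares recovered therefore do not apply to smaller changes, and a difference under the fold limit cannot be called at any p. Alternatives covered background, normalization, probes, dim probes, slide, groups in the fit and mice left out. P-values set a difference against the spread between mice within groups. This spread was pooled over all groups in the fit and drawn by limma towards that of other probes. Equal spread in all groups was thus assumed, although SDs differed between HL and LL livers for *Stt3a* and *Ssr2*. The study's methods do not say which offspring shared a dam, and littermates, if any, were fitted as independent mice.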

Additional observations from a re-analysis of the deposited data

Results flagged for a closer look

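Single mice lay apart from their group in 3 of the 80 groups of values checked (10 genes, 8 groups), where about 1 in 20 is flagged by chance. *Ssr1* stood at -0.24 in HH liver replicate 4, with the nearest mouse at -0.35. *Ssr2* stood at 0.01 in LL liver replicate 1, with the nearest at 0.19. *Rpn2* stood at -0.26 in HL liver replicate 5, with the nearest at -0.59.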

How the results depend on the processing

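Of 944 recomputed counts of called subunits and median differences, 936 stayed within 1.5 times the main count or within the spread of the members' mean between mice (SD 0.14 in liver, 0.08 in colon). The main count was 0 in every comparison of diets, so that a count that stayed at 0 says little about robustness. The same holds for small medians, which could change sign and still lie within the spread. In liver LL minus HL the median was -0.02 and ran from -0.09 to 0.06 with single mice left out, all within the spread. In liver LL minus HH the median itself was 0.14. Without a fold limit 8 subunits were called between tissues. With arrays centred on their median, which moved the median of all probes from 0.01 to 0.22 between tissues, the members' median was 0.31 for liver HL minus HH, 0.30 for liver LL minus HH, -0.18 for colon LH minus HL and -0.68 for liver minus colon. Without colon slides 11 and 12, an alternative chosen after seeing the data, it was -0.13 for colon LL minus HL, -0.14 for colon LL minus HH and -0.05 for the colon interaction. The cause was not tested.

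Signs turned mostly where a difference was near 0. In liver LL minus HL, *Rpn1* was at 0.02 with the local background as deposited, 0.02 with processed signals, 0.01 with median centring, 0.03 as the mean over probes and 0.03 without the 2 mice with markers of another tissue (also chosen after seeing the data). *Sec61a1* was at -0.08 without mice with *Xist* signal and -0.03 without the 2 mice, and *Sec61g* at -0.02 without mice with *Xist* signal. Between tissues *Ssr2* was at -0.29 with median centring, *Ssr1* at 0.02 as the mean over probes and 0.07 without slides 11 and 12, and *Sec61g* at 0.03 without those slides. Leaving out single mice gave -0.04 to 0.09 for *Sec61a1*, -0.04 to 0.24 for *Sec61g*, -0.16 to 0.06 for *Ssr2*, -0.11 to 0.07 for *Rpn1* and -0.01 to 0.10 for *Rpn2* in liver LL minus HL, and -0.07 to 0.01 for *Sec61g* and -0.03 to 0.01 for *Ssr1* between tissues.

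In liver LH minus HH the number of probes called was 6 with both arrays of 1 HH mouse counted as mice, 5 with the slide as a block and 18 with only these groups in the fit, and the members' median ran from 0.29 to 0.44 over the alternatives. The interaction could not be fitted with 2 groups. The labels number replicates only for the 2 arrays of the same HH mouse, and replicates were numbered here in accession order. No paired analysis was possible because the labels link no animals across groups or tissues. Slides, which each hold 1 array of every diet, were fitted as a block in its place, with 0 subunits called in liver LL minus HL and in the colon comparisons.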
